A study of Homo sapiens with 6 samples.

Results

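The measurements concern AGS, an established human gastric adenocarcinoma line, carrying a lentiviral vector for NINJ1 and compared with AGS carrying a negative control vector. The members are the count columns whose headers name AGS: 2 NINJ1 libraries and 1 control library, 3 of the 6 libraries of the series. The other 3 are the same design in HGC-27, a second gastric carcinoma line. Cells were transduced at low density and lysed in the culture well after 48 hours, and poly(A) RNA was sequenced. Whether the NINJ1 libraries came from separate transductions is not stated, so the p-values rest on the spread within the NINJ1 pairs, and that spread may be technical only. The control is a single library, and the test assumes that it varies like the NINJ1 pairs.

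The labels and the count columns disagree on replicate 2. The library whose column header names AGS NINJ1 replicate 2 is titled as HGC-27, and the reverse holds for the other replicate 2. The headers were followed here. In the library headed AGS NINJ1 replicate 2, GPRIN3, SRGN, MPDZ, EMB and TSPAN6, which separate HGC-27 from AGS in these data, were all at 0 counts, as in AGS NINJ1 replicate 1. The list of 10 line markers also holds WFDC1, GUCY1A2, PASD1, QPRT and MAGEA12. They had 163, 134, 732, 285 and 444 counts in AGS NINJ1 replicate 2, and 276, 145, 566, 233 and 466 in replicate 1. Against the AGS control, edgeR called WFDC1 and GUCY1A2 lower and PASD1 higher. The 10 markers were chosen with the data known, so they describe the library and are no independent test of its line. With the lines taken from the titles, edgeR called 0 genes in either direction, with 595 at an unadjusted p under 0.05; DESeq2 was not run with those lines.

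Ninjurin-1, the product of NINJ1, is a small cell surface protein with a pair of membrane-spanning segments, first described as an adhesion molecule raised on injured nerves. In dying cells it clusters in the plasma membrane and breaks it open at the last step of pyroptosis and other lytic deaths. The ESCRT-III complex works in the opposite direction and removes damaged patches of plasma membrane.

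Library totals of the 3 AGS libraries lay between 12619684 and 13948290 counts, over 22839 to 23396 genes with a count. Levels below are CPM, counts per 1e+06 counts of the library scaled by the trimmed mean of M values. The 16 listed markers of a gastric epithelial line summed to 990 CPM in the control and 682 and 672 CPM in NINJ1 replicates 1 and 2. Of the 10 tested, 5 were called lower by edgeR at an adjusted p under 0.05 (3 to 6 with any 1 library other than the AGS control left out), beside 9.30% of all genes tested, and 0 higher, 9 had both NINJ1 libraries below the control, and the median log2 change was -0.71. ELF3, an epithelial transcription factor, fell from 93.2 to 41.7 and 45.8 CPM (log2 change -1.09, SE 0.14, edgeR adjusted p = 7.75e-07). KRT8 stood at 435 CPM in the control and 323 and 320 CPM in the NINJ1 libraries, and KRT18 at 228, 196 and 200 CPM. EPCAM was low at 7.91, 7.69 and 6.19 CPM, CDH1 held at most 4 counts in a library, and KRT19, CDX1, CDX2 and the 3 trefoil factor genes held at most 3. The blood cell markers PTPRC, CD3E, LYZ and HBB were at 0 in every AGS library. In these bulk libraries, fewer cells of a kind and less RNA per cell cannot be told apart.

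NINJ1 mRNA was lower in the libraries with the NINJ1 vector than in the control. The gene (chr9:93121489-93134288, minus strand, GRCh38) stood at 28.4 CPM in the control and at 19.5 and 15.9 CPM in NINJ1 replicates 1 and 2, with both NINJ1 libraries below the control. The fitted log2 change was -0.68 (SE 0.19, edgeR adjusted p = 0.0148), a 1.6-fold lower level. The call was lost without NINJ1 replicate 2 (log2 change -0.54, edgeR adjusted p = 0.260) and in DESeq2 (log2 change -0.70, DESeq2 adjusted p = 0.136). Whether the vector overexpresses or targets NINJ1 is not stated in the sources used here. It is also not stated whether a NINJ1 sequence in the vector would be counted as the gene. The related gene NINJ2 held 42 counts in the control and 4 and 11 counts in the NINJ1 libraries (log2 change -2.42, SE 0.70, edgeR adjusted p = 0.0162), a call lost without replicate 1 (edgeR adjusted p = 0.135).

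By edgeR, more genes were called lower than higher, while the median log2 change over all genes tested was 0.00357. Of 17617 genes tested, 1010 (5.73%) were called higher and 1638 (9.30%) lower in the NINJ1 libraries at an adjusted p under 0.05, together 15.0%, of which 134 rose and 673 fell by more than 2-fold. Every called gene had both NINJ1 libraries on the same side of the control, which 7276 tested genes (41.3%) had above it and 7315 (41.5%) below it, called or not. Among the 9854 genes with a mean of at least 10 CPM, the median absolute log2 change was 0.244 and the median absolute log2 gap between the NINJ1 libraries was 0.0970. The number of calls moved with the libraries in the fit: leaving out NINJ1 replicate 1 gave 406 higher and 1032 lower, leaving out replicate 2 gave 201 and 734, and leaving out an HGC-27 NINJ1 library gave 2193 and 2519 or 2199 and 2503. A range in brackets after the count of a gene list below is the count with any 1 library other than the AGS control left out. The counts of the gene lists below are to be read beside the 5.73% of all genes tested called higher and the 9.30% called lower. DESeq2 called 456 higher and 852 lower. Higher genes were 38.1% of the calls in edgeR, 48.5% with an offset for base composition, and 71.6% and 74.4% with limma on FPKM (fragments per kilobase scaled to the library) rescaled to equal sums, which moves the median change of all genes to 0.158 and 0.193 on the log2 scale. In the plot of change against level, HSP90AA1 and HSPA8 stand at the upper edge of the abundant genes. The abundant heat shock genes HSP90AB1 and HSPB1 were not called.

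**Figure D1:**
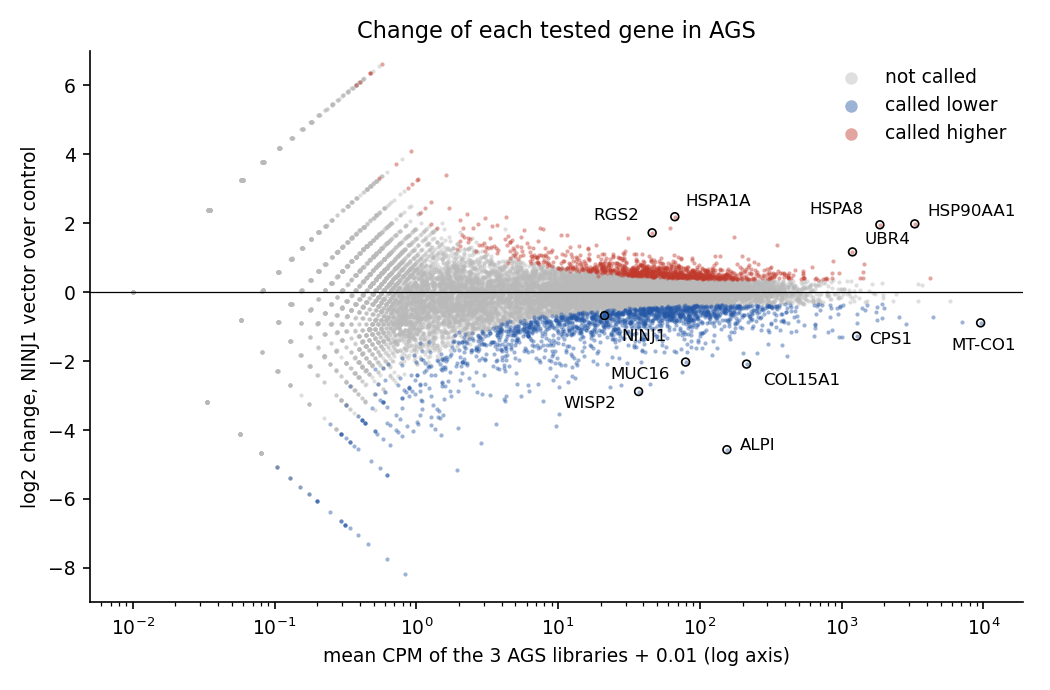
Log2 change of each of the 17617 tested genes in AGS, NINJ1 vector over control, against its mean CPM over the 3 AGS libraries (log axis, with 0.01 added). Red points were called higher and blue points lower by edgeR at an adjusted p under 0.05. HSP90AA1 and HSPA8 rose at levels above 1000 CPM in the NINJ1 libraries, and ALPI had a log2 change of -4.57.

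Of 48 heat shock and chaperone genes tested, 27 were called higher and 0 lower, and 21 did not pass the test. Over all genes tested, 5.73% were called higher and 9.30% lower. Heat shock proteins keep unfolded proteins soluble and refold them: HSP70 binds exposed stretches, its HSP40 partners and HSP110 exchange factors drive its cycle, and HSP90 with its cochaperones finishes folding of kinases and receptors. Their genes are switched on by heat shock factors, which bind repeats of the 5-base unit nGAAn in alternating orientation. The promoters of 5 genes that rose are shown because they carry this repeat. Sequences are RefSeq's, on GRCh38.p14, from 250 bases before to 50 bases after the transcript start. Capitals mark the repeat of 3 units, GAANNTTCNNGAA or TTCNNGAANNTTC, and in HSPA1A, where 3 units were not found, the repeat of 2 units, GAANNTTC.
HSPA8 promoter, chr11:123062087-123062386, minus strand: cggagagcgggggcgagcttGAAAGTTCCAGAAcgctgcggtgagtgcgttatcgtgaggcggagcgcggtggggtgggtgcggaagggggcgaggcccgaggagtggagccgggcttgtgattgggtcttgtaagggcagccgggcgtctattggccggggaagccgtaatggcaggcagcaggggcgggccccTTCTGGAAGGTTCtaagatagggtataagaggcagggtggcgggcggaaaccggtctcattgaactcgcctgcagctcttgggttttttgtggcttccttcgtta
HSP90AA1 promoter, chr14:102086995-102087294, minus strand: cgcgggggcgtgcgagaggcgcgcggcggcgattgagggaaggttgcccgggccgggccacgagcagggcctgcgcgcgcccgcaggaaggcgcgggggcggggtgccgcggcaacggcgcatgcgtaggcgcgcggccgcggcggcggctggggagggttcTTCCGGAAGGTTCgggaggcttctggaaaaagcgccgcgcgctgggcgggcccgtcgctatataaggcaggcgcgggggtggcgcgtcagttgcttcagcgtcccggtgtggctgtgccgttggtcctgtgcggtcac
CHORDC1 promoter, chr11:90223000-90223299, minus strand: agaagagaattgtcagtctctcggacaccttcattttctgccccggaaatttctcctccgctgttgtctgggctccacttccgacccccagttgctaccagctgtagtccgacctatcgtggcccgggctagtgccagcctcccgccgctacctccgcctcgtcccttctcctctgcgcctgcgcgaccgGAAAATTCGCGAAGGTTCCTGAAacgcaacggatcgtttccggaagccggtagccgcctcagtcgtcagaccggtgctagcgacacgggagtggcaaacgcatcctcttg
HSPD1 promoter, chr2:197499791-197500090, minus strand: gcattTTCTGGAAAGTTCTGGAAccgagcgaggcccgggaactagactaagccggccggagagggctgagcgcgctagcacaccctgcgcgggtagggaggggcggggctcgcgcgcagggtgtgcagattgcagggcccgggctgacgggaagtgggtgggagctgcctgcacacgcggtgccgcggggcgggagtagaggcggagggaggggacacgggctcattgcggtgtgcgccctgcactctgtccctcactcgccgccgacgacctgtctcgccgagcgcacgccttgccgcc
HSPA1A promoter, chr6:31815293-31815592, plus strand: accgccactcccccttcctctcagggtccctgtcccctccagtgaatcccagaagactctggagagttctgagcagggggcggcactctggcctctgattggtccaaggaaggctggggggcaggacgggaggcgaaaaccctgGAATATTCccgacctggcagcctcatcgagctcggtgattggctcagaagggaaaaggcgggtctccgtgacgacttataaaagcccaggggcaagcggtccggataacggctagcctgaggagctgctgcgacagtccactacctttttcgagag
In HSPA8 the repeats began 230 and 55 bases before the start, in HSP90AA1 88 bases and in HSPA1A 106 bases before it. In CHORDC1 and HSPD1 overlapping repeats ran together into 1 longer stretch.

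Of the 48 heat shock and chaperone genes tested, 44 had a promoter in the table, and FKBP4 and CCT6A were among those that did not. Both strands were searched, the reverse complement of each pattern being the other pattern or itself. The repeat of 3 units was in the promoters of 6 of 25 genes called higher (24.0%), of 2 of 19 not called (10.5%) and of 166 of all 27305 genes in the table (0.608%). Those 2 not called were HSP90AB1, with 2 such repeats, and DNAJB6, with 1 (log2 changes 0.27 and 0.30). The repeat of 2 units (GAANNTTC or TTCNNGAA), which is part of the longer one, was in 16 of 25 genes called higher (64.0%), 5 of 19 not called (26.3%) and 16.2% of all genes. For proteasome subunits the figures were 0 of 26 and 2 of 26 genes. These are matches of letters, not measured binding.

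Of 13 HSP70 and HSP110 genes tested, 9 were called higher [5 to 9] and 0 lower, with a median log2 change of 0.65 beside 0.00357 over all genes. HSPA8, the constitutive HSP70 (chr11:123057489-123063230), stood at 639 CPM in the control and at 2141 and 2807 CPM in NINJ1 replicates 1 and 2. That is a log2 change of 1.95 (SE 0.15, edgeR adjusted p = 1.85e-11), or 3.87-fold. HSPA1A, the stress-induced HSP70 (chr6:31815464-31817946), stood at 19.8, 66.1 and 114 CPM (log2 change 2.19, SE 0.23, edgeR adjusted p = 1.75e-08). Its near-identical neighbour HSPA1B (chr6:31827735-31830255) stood at 22.2, 66.2 and 95.9 CPM, and reads may be split between this pair of genes in a way the counting does not show. Replicate 2 was the higher of the NINJ1 libraries for all 3 genes, and both lay well above the control.

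The strictly induced HSPA6 was at 2 counts in the control and 13 and 27 counts in the NINJ1 libraries (edgeR adjusted p = 0.0262), and was not called without replicate 2 (edgeR adjusted p = 0.239). HSPH1, the HSP110 exchange factor, rose from 168 to 417 and 458 CPM (log2 change 1.38, SE 0.14). HSPA4L, a relative of HSPH1, was at 88.4, 132 and 145 CPM, a call lost without replicate 2 (edgeR adjusted p = 0.0703).

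Of 12 HSP90 and cochaperone genes, 6 were called higher [4 to 9] and 0 lower, with a median log2 change of 0.40. HSP90AA1, the inducible HSP90 (chr14:102080738-102139699), had the largest rise in CPM of all genes called, from 1108 CPM in the control to 4013 and 4727 CPM. Its log2 change was 1.98 (SE 0.14, edgeR adjusted p = 2.79e-12). Its constitutive paralog HSP90AB1 was at 1693, 1977 and 2091 CPM, a log2 change of 0.27 that did not pass the test (edgeR adjusted p = 0.149). Among the cochaperones, CHORDC1 rose from 116 to 227 and 256 CPM, AHSA1, which speeds the HSP90 ATPase, from 44.3 to 79.1 and 96.7 CPM, and FKBP4, an immunophilin, from 101 to 157 and 157 CPM.

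Of 11 HSP40 genes, 4 were called higher [3 to 8] and 0 lower, with a median log2 change of 0.30. DNAJB1, the main stress-induced HSP40, rose from 74.7 to 206 and 242 CPM (log2 change 1.58, SE 0.16). DNAJA1 rose from 80.7 to 153 and 181 CPM, DNAJA4 from 28.5 to 50.6 and 56.2 CPM, and DNAJB4 from 23.5 to 36.6 and 41.6 CPM. The call of DNAJB4 was lost without replicate 2 (edgeR adjusted p = 0.0988).

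Of 12 small heat shock protein and chaperonin genes, 8 were called higher [3 to 11] and 0 lower [0 to 1], with a median log2 change of 0.50. HSPD1, the mitochondrial chaperonin HSP60, rose from 546 to 1001 and 1049 CPM (log2 change 0.91, SE 0.13, edgeR adjusted p = 3.97e-06). TCP1, a subunit of the cytosolic chaperonin that folds actin and tubulin, rose from 222 to 357 and 376 CPM. HSPB8, a small heat shock protein that works with BAG3 in disposal of aggregates, rose from 17.7 to 32.2 and 37.5 CPM. The abundant small heat shock gene HSPB1 had a log2 change of -0.40 and did not pass the test (edgeR adjusted p = 0.0635).

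The heat shock factors themselves were not called, although 3 of the 4 tested genes had an unadjusted p under 0.05. HSF1, the main factor, was at 96.1, 106 and 104 CPM (log2 change 0.12, edgeR adjusted p = 0.589), and passed the test only with the GC offset described below (log2 change 0.46, edgeR adjusted p = 0.00269). HSF2 was at 26.0, 33.5 and 34.8 CPM, HSF4 at 17.2, 13.2 and 9.50 CPM and the inhibitor HSBP1 at 65.3, 84.7 and 81.8 CPM. Without that offset, edgeR and DESeq2 called 0 of these 4 with all 6 libraries, and leaving out single libraries gave up to 2 higher and up to 1 lower. The chaperone genes plotted by library were all called higher, so both NINJ1 points lie to the right of the control by this choice. Genes that were not called, HSPB1 and HSP90AB1 among them, are not drawn.

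**Figure D2:**
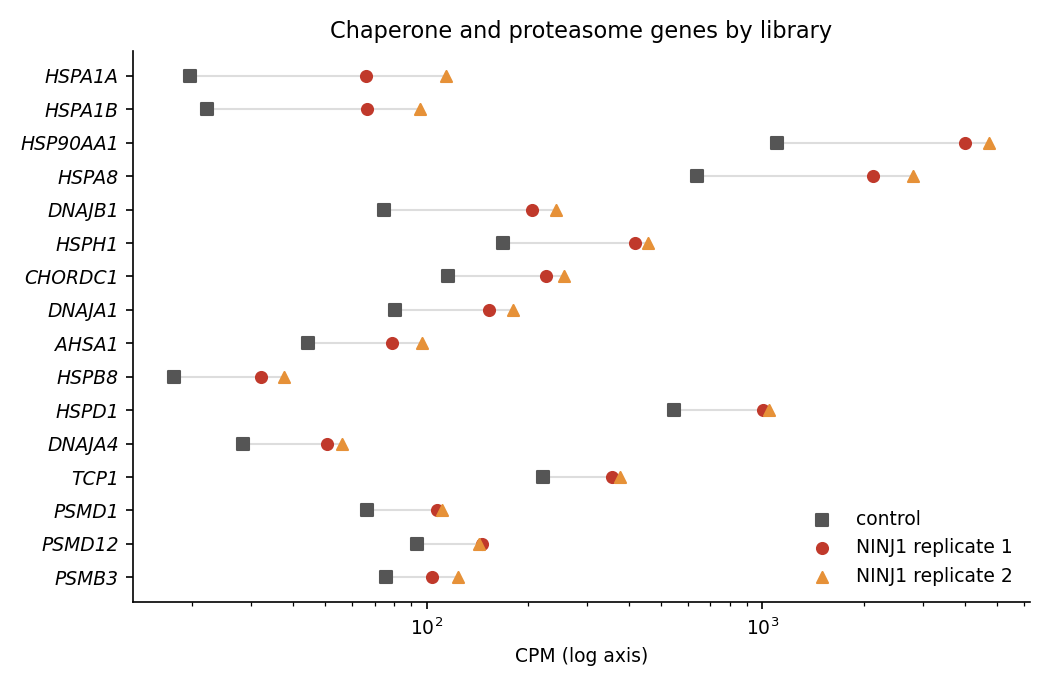
CPM (log axis) of 13 chaperone genes, all called higher, and 3 proteasome subunit genes in the AGS control (square) and NINJ1 replicates 1 (circle) and 2 (triangle). HSPA8 goes from 639 CPM in the control to 2141 and 2807 CPM, and PSMD1 from 66.5 to 107 and 111 CPM.

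The proteasome degrades proteins tagged with ubiquitin, with a barrel-shaped core and a regulatory cap. Of its 31 subunit genes, 17 were called higher and 0 lower, with a median log2 change of 0.44, and 30 had both NINJ1 libraries above the control. The count fell to 8 without replicate 1 and to 2 without replicate 2 [2 to 21], and limma on FPKM as deposited called 7 of 30. PSMD1, a scaffold of the cap, was at 66.5 CPM in the control and 107 and 111 CPM in the NINJ1 libraries (log2 change 0.72, SE 0.14, edgeR adjusted p = 0.000408). PSMD12, also of the cap, rose from 93.4 to 146 and 143 CPM. The core subunit PSMB3 was at 75.5, 104 and 124 CPM, a call lost without replicate 2 (edgeR adjusted p = 0.205). UBR4, a very large ubiquitin ligase that feeds substrates to the proteasome (chr1:19074506-19210276), was called higher, at 653 CPM in the control and 1365 and 1563 CPM in the NINJ1 libraries (log2 change 1.17, SE 0.13).

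Of 23 genes of chaperones of the endoplasmic reticulum (ER) and the unfolded protein response, 0 were called higher [0 to 2] and 5 lower [1 to 6], with a median log2 change of -0.13 that was 0.04 with rescaled FPKM, and limma called 1 lower. CREB3L2, an ER-bound transcription factor, fell from 324 to 184 and 185 CPM (log2 change -0.81, SE 0.12, edgeR adjusted p = 1.17e-05). PDIA3, a disulfide isomerase, was at 308, 232 and 230 CPM, a call lost without either NINJ1 library (edgeR adjusted p = 0.201 and 0.256).

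The list of the ATF4 response, which answers amino acid shortage and ER stress, was mixed, with 4 of 23 called higher [0 to 9] and 6 lower [2 to 6], and 8 higher and 3 lower with the GC offset. STC2, a secreted glycoprotein, was at 164, 239 and 287 CPM, a call lost without replicate 2 (edgeR adjusted p = 0.0901). DDIT4, an inhibitor of mTORC1 induced by stress, fell from 166 to 72.4 and 65 CPM (log2 change -1.27, SE 0.17), and ALDH1L2, a mitochondrial folate enzyme, fell from 62.6 to 38.5 and 39.8 CPM. Cytosolic ribosomal protein genes hardly passed the test: 0 higher and 3 lower of 44 for the large subunit [0; 0 to 19], and 1 higher and 2 lower of 28 for the small subunit [0 to 1; 0 to 14]. Their median log2 changes were -0.19 and -0.23, and -0.02 and -0.05 with rescaled FPKM.

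Transcripts of the mitochondrial genome made up less of the NINJ1 libraries, 3.19% and 2.78% of counts beside 5.00% in the control. Of the 13 protein-coding mitochondrial genes, 12 were called lower [9 to 12] and 0 higher, all 13 had both NINJ1 libraries below the control, and the median log2 change was -0.74. MT-CO1, a core subunit of respiratory complex IV, had the largest fall in CPM of all genes called, from 13810 in the control to 7940 and 6951 CPM (log2 change -0.89, SE 0.12, edgeR adjusted p = 1.98e-06). MT-CO2 stood at 5963, 3812 and 3373 CPM and MT-CO3 at 4194, 2185 and 2214 CPM. MT-ND4 of complex I fell from 10060 to 5948 and 5150 CPM, MT-ND1 from 2468 to 1554 and 1284 CPM and MT-ND4L from 949 to 461 and 524 CPM. MT-CYB of complex III was at 3402, 2233 and 1930 CPM and MT-ATP6 of ATP synthase at 2627, 1625 and 1519 CPM. With limma on log2(FPKM + 1) the list's median was -0.69, but only 2 of the 13 passed, falling to 1 and 0 after rescaling.

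CPS1, the mitochondrial enzyme that makes carbamoyl phosphate for the urea cycle (chr2:210477682-210679107), is encoded in the nucleus and fell from 2099 to 905 and 829 CPM (log2 change -1.28, SE 0.13, edgeR adjusted p = 7.61e-09). Of 23 glycolysis genes, 0 were called higher [0 to 1] and 9 lower [3 to 11], with a median log2 change of -0.25 that was -0.12 with the GC offset and -0.08 with rescaled FPKM. The limma fits called 1 of 22 lower. PFKL, a phosphofructokinase, fell from 178 to 114 and 103 CPM, and ALDOC, an aldolase, from 55.2 to 33.0 and 30.0 CPM. Of 18 HIF targets outside glycolysis, 0 were called higher [0 to 1] and 8 lower [6 to 10], with a median of -0.38 that was -0.20 with rescaled FPKM, where limma called 4 lower. LOX, which crosslinks collagen, fell from 179 to 100.0 and 95.7 CPM, ANGPTL4 from 31.9 to 15.9 and 15.5 CPM, the carbonic anhydrase CA9 from 59.7 to 33.2 and 29.7 CPM, and NDRG1 from 1686 to 1052 and 1103 CPM. Of 21 NRF2 targets, 4 were called higher [1 to 6] and 5 lower [5]. GCLM, a subunit of the first enzyme of glutathione synthesis, rose from 75.4 to 151 and 160 CPM. The aldo-keto reductase AKR1C3 fell from 127 to 56.9 and 53.1 CPM, and its paralog AKR1C1 from 57 counts to 4 and 2 counts.

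Alkaline phosphatases are enzymes anchored to the outer face of the membrane, and all 4 of their genes were called lower, also with any 1 library other than the AGS control left out, and 3 of 4 in limma on rescaled log2(FPKM + 0.1). ALPI, the intestinal form, went from 429 CPM in the control to 21.7 and 14.5 CPM, a log2 change of -4.57 (SE 0.16, edgeR adjusted p = 2.19e-20) or a 23.8-fold lower level. ALPP, the placental form, fell from 161 to 35.6 and 29 CPM, ALPG, the germ cell form, from 6.50 to 1.19 and 1.22 CPM, and the tissue-nonspecific form ALPL from 35.9 to 11.2 and 10.7 CPM. The first 3 are related in sequence, so some reads may be assigned among them with error.

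ALPP, ALPG and ALPI lie side by side on chromosome 2 (chr2:232378534-232382889, chr2:232406843-232410714 and chr2:232456123-232460032), and the next 2 tested genes on the far side of ALPI fell as well. ECEL1, a neuronal endopeptidase gene (chr2:232479827-232487828), held 35 counts in the control and 0 in both NINJ1 libraries, at least 11.2-fold lower against a floor of 3 counts per library. PRSS56, a serine protease gene (chr2:232520463-232525716), held 78 counts in the control and 2 and 2 counts in the NINJ1 libraries (log2 change -5.15, SE 0.75, edgeR adjusted p = 6.73e-06). These neighbours of ALPI were looked at after their values were seen. Farther out, TIGD1 and EFHD1 had log2 changes of -1.08 and -0.76, and both calls were lost without replicate 2 (edgeR adjusted p = 0.0629 and 0.0901). DIS3L2, EIF4E2 and GIGYF2 had log2 changes of -0.17, 0.07 and 0.02, none of which passed the test. In the plot of this neighbourhood, the low values fill the middle and genes at the edges lie near 0.

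**Figure D3:**
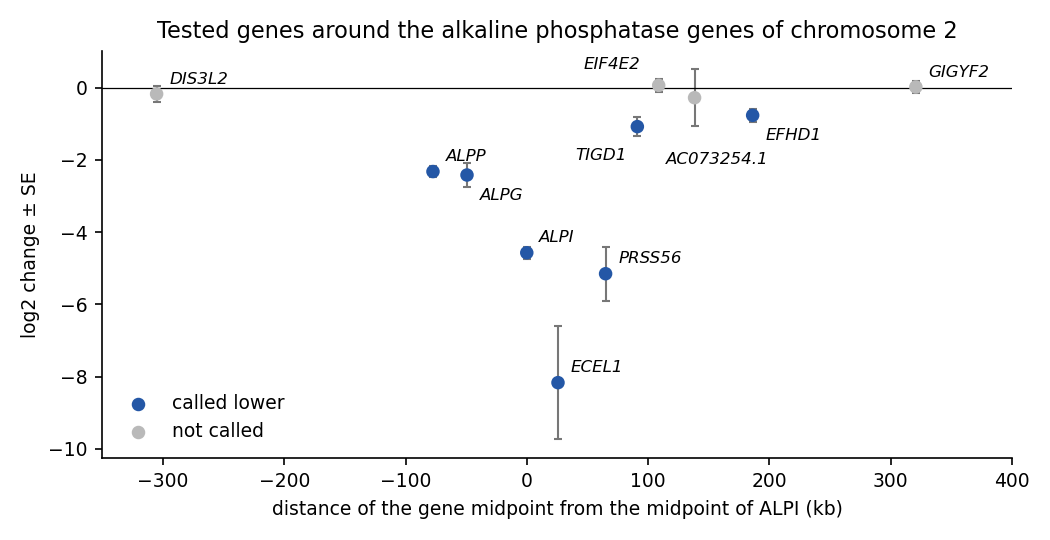
Log2 change of the tested genes that reach within 300 kb of ALPI on chromosome 2, against the distance of their midpoints from that of ALPI. Bars are the SE of the fit, blue points were called lower and grey points were not called. ALPP, ALPG, ALPI, ECEL1 and PRSS56 have log2 changes from -8.17 to -2.32, of which that of ECEL1 rests on 0 counts in both NINJ1 libraries.

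Mucins are heavily glycosylated proteins that coat the epithelial surface. Of 10 tested, 0 were called higher and 4 lower [3 to 4], with a median log2 change of -0.87. MUC16, the large membrane mucin that carries the CA125 antigen, fell from 160 to 38.5 and 39.8 CPM (log2 change -2.03, SE 0.13, edgeR adjusted p = 1.90e-13). MUC1 fell from 122 to 37.4 and 37.5 CPM. The gel-forming MUC5B held 20 counts in the control and 3 and 1 in the NINJ1 libraries. MUC5AC was at 10.7, 7.54 and 3.38 CPM, a log2 change of -0.98 that was -1.66 without replicate 1 and was not called without replicate 2 (edgeR adjusted p = 0.442) or with the GC offset (edgeR adjusted p = 0.0948).

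Collagens, laminins and the proteases that cut them make up and remodel the extracellular matrix. Of 24 collagen chain genes tested, 0 were called higher and 15 lower [13 to 18], 22 had both NINJ1 libraries below the control, and the median log2 change was -1.17. COL15A1, a basement membrane collagen, fell from 436 to 111 and 94.1 CPM (log2 change -2.09, SE 0.13, edgeR adjusted p = 1.90e-13), COL5A1, a fibrillar chain, from 794 to 214 and 224 CPM, and COL4A5, of the basement membrane network, from 105 to 34.9 and 27.4 CPM. P4HA3, a prolyl hydroxylase that modifies collagen, fell from 54.0 to 8.36 and 7.63 CPM (log2 change -2.76, SE 0.20). Of 20 laminin and integrin genes, 7 were called lower [5 to 11] and 0 higher [0 to 1]. LAMA5, a laminin chain, fell from 1328 to 680 and 559 CPM and ITGB4, its receptor subunit in hemidesmosomes, from 353 to 188 and 167 CPM. Of 22 matrix proteases and inhibitors, 6 were called lower [3 to 8] and 0 higher, with a median log2 change of -0.32 that was 0.02 with rescaled FPKM. DESeq2 called 3 lower. Among the 6 was the collagenase gene MMP13, from 43 counts to 5 and 5 counts.

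Of 20 tested genes of the TGF-beta and BMP response, 0 were called higher and 9 lower [7 to 10], with a median log2 change of -0.53, and limma called 4 of 16 lower. TGFBI, a secreted matrix protein, fell from 105 to 35 and 34.5 CPM (log2 change -1.60, SE 0.15), the latent TGF-beta binding protein gene LTBP4 from 299 to 155 and 138 CPM, and ID3, an inhibitor of basic helix-loop-helix factors, from 26.5 to 10.0 and 9.29 CPM. Of 10 CCN and IGF-binding protein genes, 4 were called lower [2 to 5] and 0 higher. WISP2, a CCN family gene, fell from 87.2 to 13.1 and 10.5 CPM (log2 change -2.88, SE 0.17), and IGFBP3 from 355 to 194 and 150 CPM.

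The 11 listed markers of fibroblasts and endothelium summed to 99.7 CPM in the control and 34.9 and 29.9 CPM in the NINJ1 libraries, 4 of the 5 tested were called lower (2 in DESeq2), and LUM and PDGFRA were at 0 in all 3 libraries. Most of the sum is COL1A1, which is also 1 of the collagen chains counted above, at 66.9, 27.9 and 24.0 CPM, and PDGFRB, the PDGF receptor beta, at 27.4, 5.23 and 4.82 CPM, followed by PECAM1 at 3.46, 0.523 and 0.504 CPM. Their part in the fall of the matrix genes was not tested.

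The plot of gene lists sets these groups side by side. Medians of the heat shock and proteasome lists lie to the right of 0. Those of the ER chaperone list (-0.13) and of the matrix and surface groups lie to the left. Not all of the 54 lists are drawn, and the mixed ATF4 and NRF2 lists are among those left out.

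**Figure D4:**
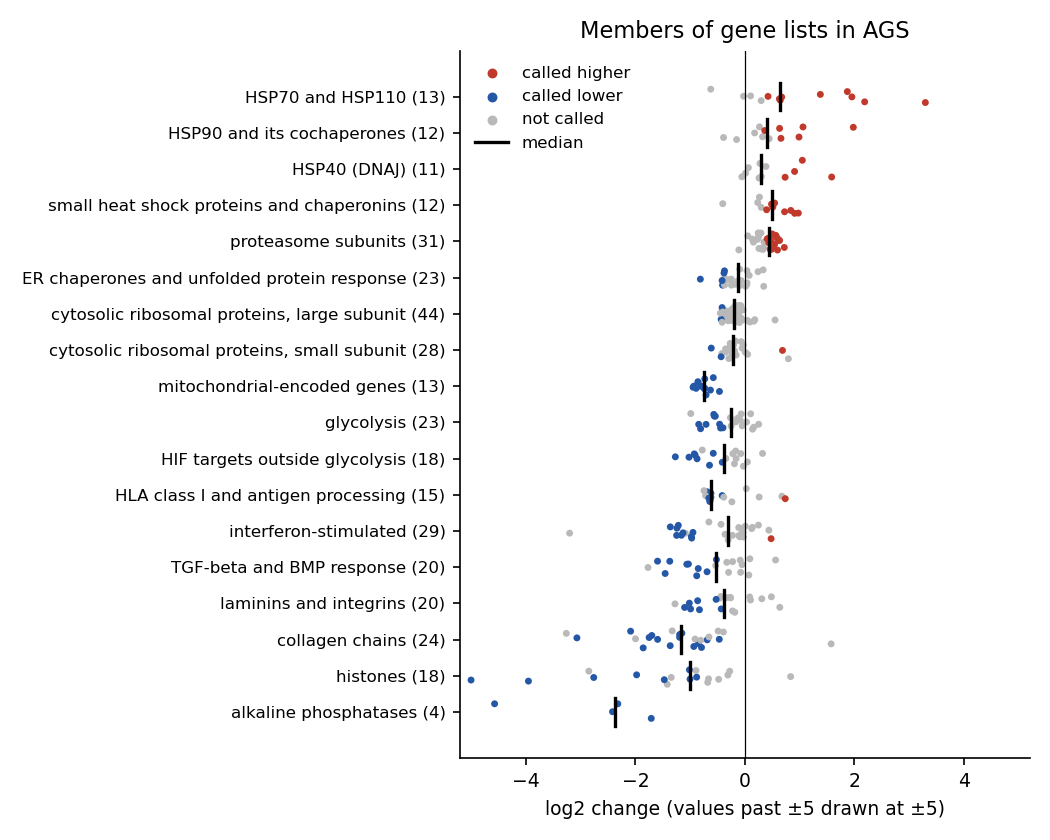
Log2 change, NINJ1 vector over control in AGS, of each tested member of 18 gene lists, with the number tested in brackets and the median as a black bar. Red members were called higher and blue members lower. Medians run from 0.65 for HSP70 and HSP110 to -2.37 for the 4 alkaline phosphatases.

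Of 16 tested genes for ninjurins and plasma membrane rupture, 3 were called higher [0 to 4] and 4 lower [3 to 5], NINJ1 and NINJ2 among the latter, and DESeq2 called 2 lower. IL18, an inflammatory cytokine, fell from 61.8 to 22.3 and 18.3 CPM (log2 change -1.61, SE 0.17, edgeR adjusted p = 1.19e-08), and GSDME, a pore-forming gasdermin, fell from 70.3 to 43.9 and 40.7 CPM. CASP4, which senses bacterial lipopolysaccharide, was at 41.4, 61.2 and 69.0 CPM and NLRP1, an inflammasome sensor, at 49.1, 72.7 and 77.2 CPM. Neither call held without replicate 2 (edgeR adjusted p = 0.122 for CASP4 and 0.138 for NLRP1), and that of NLRP1 was also lost without replicate 1 (edgeR adjusted p = 0.0509). Of 22 ESCRT-III and membrane repair genes, 3 were called higher, CHMP7, CHMP1A and ANXA7, and 0 lower [0 to 7; 0 to 1]. Their log2 changes were 0.58, 0.42 and 0.38, and none of the 3 was called without replicate 1 (edgeR adjusted p = 0.0792, 0.297 and 0.265) or without replicate 2 (edgeR adjusted p = 0.101, 0.25 and 0.312). BMF, which promotes apoptosis by binding BCL2, fell from 21.3 to 4.18 and 3.67 CPM (log2 change -2.44, SE 0.26).

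Of 15 HLA class I and antigen processing genes, 7 were called lower [4 to 9] and 1 higher [1], with a median log2 change of -0.62 that was -0.36 with the GC offset and -0.29 with rescaled FPKM. The limma fits called 1 or 2 of 14 lower. B2M, the shared light chain, fell from 867 to 544 and 568 CPM, and TAPBP, of the peptide loading complex, from 177 to 107 and 117 CPM. The peptide transporter gene TAP2 rose from 51.0 to 84.1 and 85.8 CPM. Of 29 interferon-stimulated genes, 9 were called lower [8 to 9] and 1 higher [0 to 2], with a median log2 change of -0.31 that was -0.06 with rescaled FPKM. ISG15 fell from 76.5 to 32.5 and 33.3 CPM, and the membrane proteins IFITM3 and IFITM2 fell from 141 to 63.2 and 56.4 CPM and from 83.9 to 38.1 and 27.2 CPM. Complement genes C3, CD46 and CLU were the 3 called lower of 7 [3], with 0 higher [0 to 1]. C3 fell from 475 to 147 and 134 CPM (log2 change -1.76, SE 0.12, edgeR adjusted p = 2.79e-12), the surface regulator CD46 from 1120 to 744 and 627 CPM, and CLU from 501 to 314 and 328 CPM. Of 18 NF-kB and chemokine genes, 2 were called in each direction [1 to 4 higher; 2 lower], with TNFAIP2 falling from 254 to 142 and 132 CPM and the feedback inhibitor NFKBIA from 34.5 to 16.4 and 19.4 CPM.

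Of 23 AP-1 and immediate-early genes, 6 were called lower [5 to 7] and 2 higher [1 to 6], with a median log2 change of -0.15 that was 0.01 with rescaled FPKM. FOS, a partner of JUN in AP-1, fell from 53 to 21.7 and 21.1 CPM, FOSL2 from 257 to 141 and 148 CPM, and JUND from 166 to 100.0 and 82.4 CPM. Of 31 DNA replication and mitosis genes, 5 were called higher [0 to 9] and 3 lower [1 to 8]. Over all genes tested, 5.73% were called higher and 9.30% lower, and the share called lower in this list and in the NF-kB list was near the latter. MCM5, of the replicative helicase, fell from 96.2 to 56.1 and 49.3 CPM, and the CDK inhibitor gene CDKN1B fell from 66.6 to 39.1 and 39.8 CPM. Of 18 histone genes tested, 8 were called lower [7 to 8] and 0 higher [0 to 1], with a median log2 change of -1.01, and DESeq2 called 4 lower. HIST2H2BE fell from 23.4 to 4.48 and 2.45 CPM (log2 change -2.76, SE 0.27), HIST1H2AC from 14.5 to 4.41 and 2.95 CPM and the linker histone gene H1F0 from 515 to 265 and 249 CPM. The SR and hnRNP splicing factors, 21 genes, had 0 calls in either direction [0 higher; 0 to 2 lower] in edgeR, 0 in DESeq2 and 0 at an unadjusted p under 0.05.

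TJP3, a scaffold of tight junctions, fell from 26.2 to 1.87 and 2.59 CPM (log2 change -3.55, SE 0.25, edgeR adjusted p = 4.24e-12), and CLDN7, a claudin, from 31.8 to 11.9 and 8.85 CPM, in a list of 18 with 3 called lower [2 to 5] and 1 higher [0 to 2] and a median log2 change of -0.17 that was 0.13 with rescaled FPKM. The microvillus genes USH1C and ESPN fell from 72.2 to 23 and 22.4 CPM and from 143 to 78.9 and 70.8 CPM. Their list of 9 tested brush border genes had 4 called lower and 1 higher. S100A4, a calcium-binding protein, fell from 143 to 50.9 and 49.0 CPM, the receptor gene ERBB3 from 23.2 to 10.4 and 9.93 CPM, the imprinted noncoding RNA H19 from 188 to 65.5 and 56.9 CPM and INSIG1, which restrains cholesterol synthesis, from 285 to 182 and 187 CPM. Among 10 S100 genes tested, 3 were called lower and 0 higher. Among 21 receptor kinase and ligand genes, 3 were called lower and 1 higher. The 16 tested noncoding RNA genes listed with H19 had 2 called in each direction. ZEB2, a repressor of epithelial genes, rose from 5.72 to 11.8 and 11.5 CPM (log2 change 1.03, SE 0.25), a call lost in DESeq2 (adjusted p = 0.0633). Among 12 tested factors of the epithelial-mesenchymal transition, ZEB2 was the 1 called higher and 2 were called lower, with a median log2 change of -0.32. The keratin gene KRT8, given above, was called lower, and its call was lost without replicate 1 or 2 (edgeR adjusted p = 0.167 and 0.223).

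Outside these lists, 12 genes in each direction were named by the size of their change. The rises not yet given were of RGS2, which switches off Gq signals and stood at 18.2, 59.0 and 61.0 CPM (log2 change 1.72, SE 0.18, edgeR adjusted p = 9.28e-09), and of ZNF473, a zinc finger factor of histone mRNA processing, at 13.5, 33.8 and 45.6 CPM. SOCS2, a feedback inhibitor of cytokine signals, was at 8.97, 21.0 and 25.3 CPM. NAALAD2 was at 4.24, 14.1 and 12.9 CPM, QRICH2 at 4.73, 13.1 and 16.6 CPM and the pseudogene RP9P at 6.92, 15.2 and 20.1 CPM. Falls of this size included TSHZ2, a zinc finger factor, from 63.4 to 10.7 and 8.78 CPM, WFDC1, a secreted protease inhibitor, from 102 to 20.6 and 11.7 CPM, and SEMA5A, a guidance cue, from 28.9 to 5.90 and 4.46 CPM. FRY was at 26.5, 4.18 and 4.46 CPM and MYLK3 at 26.2, 5.90 and 5.69 CPM.

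By absolute CPM, the rises not yet given were of GPRC5A, a retinoic acid-induced receptor, from 960 to 1619 and 1726 CPM, and of 3 cytoskeletal genes. ACTG1, cytoplasmic actin, was at 3475, 4506 and 4663 CPM, the cytolinker PLEC at 1075, 1538 and 1654 CPM and the dynein heavy chain DYNC1H1 at 1154, 1482 and 1609 CPM. Without replicate 2 none of these 3 was called (edgeR adjusted p = 0.290, 0.102 and 0.330), nor ACTG1 and DYNC1H1 without replicate 1 (edgeR adjusted p = 0.166 and 0.113). No gene was at 0 in the control with at least 20 counts in both NINJ1 libraries, and ECEL1 and AC104809.2 were the 2 with the reverse, the latter with 26 counts in the control and at least 8.35-fold lower.

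Calls followed base composition. The median GC content was 44.9% for genes called higher and 54.9% for genes called lower, beside 48.1% for all tested, and genes over 60% GC took 11.3% of counts in the control and 9.68% and 9.25% in the NINJ1 libraries. Among genes of 35% to 40% GC, 8.66% were called higher and 5.15% lower. Above 65% GC, 0.842% were called higher and 26.3% lower, and the median log2 change went from 0.12 to -0.44 between these classes. An offset fitted to GC content in each library removed this slope and kept 2384 of the 2648 calls, with 1636 genes higher and 1738 lower. GC-rich genes moved most with the offset: MUC1 went from -1.70 to -1.10, LAMA5 from -1.10 to -0.70, LTBP4 from -1.03 to -0.62 and JUND from -0.86 to -0.33 on the log2 scale, while HSP90AA1 went from 1.98 to 1.95. Whether the slope is biological or technical was not tested.

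**Figure D5:**
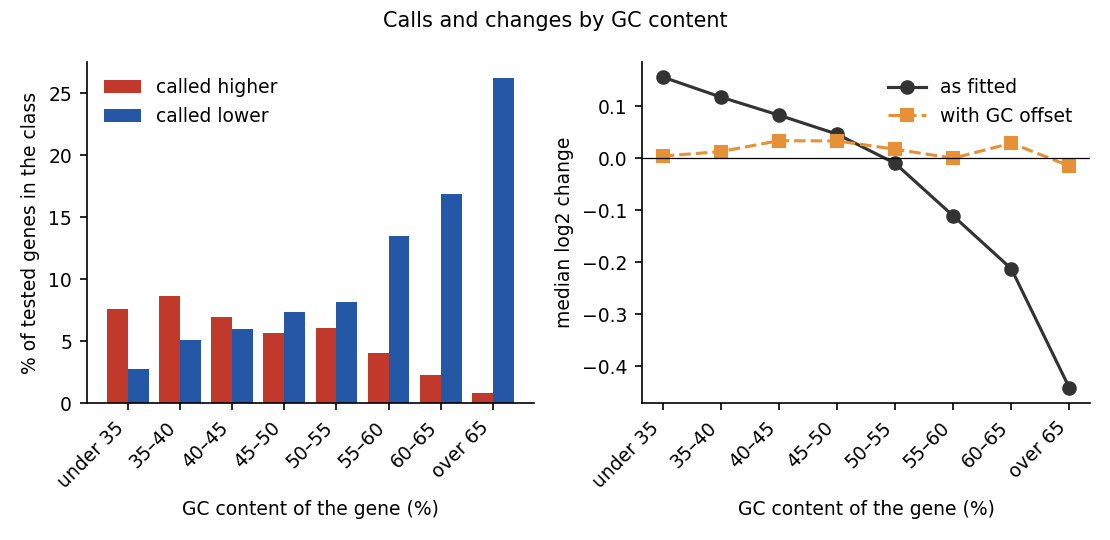
Left, the percentage of tested genes called higher (red) and lower (blue) in AGS in each class of gene GC content. Right, the median log2 change of each class as fitted (circles) and with the GC offset (squares). The share called lower reaches 26.3% above 65% GC.

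The calls were spread over the chromosomes, with 2.48% of tested genes higher on chromosome 21 and 7.50% on chromosome 1, and 4.97% lower on chromosome 13 and 11.9% on chromosome 20. Of 13438 protein-coding genes tested, 7.05% were called higher and 10.9% lower, beside 1.27% and 6.27% of 1021 long intergenic noncoding RNA genes.

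The AGS changes were set against those of the same design in HGC-27 by the difference of the 2 log2 changes in 1 fit. That difference passed the test for 54.2% of genes without and 35.1% with the GC offset, so such a difference was common. The HGC-27 control stood apart, with 2.31% of its counts from genes over 60% GC beside 9.25% to 11.3% in the other 5 libraries. HSP90AA1 differed most clearly among the chaperones: with the GC offset its log2 change was 1.95 in AGS and -0.63 in HGC-27 (difference 2.59, edgeR adjusted p = 3.03e-12). HSPA8 changed by 1.94 and 0.30 (difference 1.63, edgeR adjusted p = 3.10e-08) and PSMD1 by 0.69 and -1.15 (difference 1.84, edgeR adjusted p = 1.15e-09). HSPB8 rose more in HGC-27, by 1.02 in AGS and 1.68 in HGC-27 (difference -0.663, edgeR adjusted p = 0.0206). For the stress-induced HSPA1A and DNAJB1 the difference did not pass in both fits. NINJ1 itself changed by -0.57 in AGS and 0.57 in HGC-27 (difference -1.15, edgeR adjusted p = 0.00249), and the difference was -2.57 without the offset. For 13 named genes, MUC1 and PLEC among them, the difference passed in both fits with opposite signs, so no direction is given for them.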

How the data were processed

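Gene counts and FPKM values were deposited by the authors, per the file headers, side by side in 1 table for each of 6 libraries, over 51103 genes. HISAT2, HTSeq 0.13.5 and GRCh38 are named in the submitters' processing notes. The HISAT2 version, the annotation and the use of strand are not given in the sources used here. All gene IDs matched GENCODE 29, which supplied coordinates, GC content and gene types. The main test was edgeR 4.0.16 (quasi-likelihood, R 4.3.3) on the deposited counts, in 4 groups of line, by column header, and vector over all 6 libraries, after filterByExpr with a minimum count of 10 and TMM scaling. P-values were adjusted by Benjamini-Hochberg over 17617 genes and called under 0.05, and SE is the absolute log2 change over the square root of F. Precision depends on the AGS totals, 12619684 to 13948290 counts, and on the spread estimated within the NINJ1 pairs.

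Alternatives were DESeq2 1.42.0, its size factors in edgeR, no filter, the AGS libraries alone, the lines in the titles, each NINJ1 library left out, a GC offset (loess, span 0.3), and limma 3.58.1 on log2(FPKM + 1), as deposited or rescaled to equal sums, the latter also with a pseudocount of 0.1. Leaving out the HGC-27 control was chosen after seeing the data. The FPKM fits used genes at 1 or more in at least 2 libraries. The members and the 54 gene lists were chosen with earlier results of these data known. Named were both ninjurin genes, 12 genes per direction by log2 change at 10 CPM or more, 8 per direction by CPM difference, up to 5 per list by p, and genes at 0 in 1 arm with at least 20 counts per library in the other. Some genes this rule names are not reported here. Promoter sequences are RefSeq's.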

Additional observations from a re-analysis of the deposited data

Results flagged for a closer look

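For 62 of the 138 genes named, the log2 change in AGS differed from that in HGC-27 by a test of the difference itself (edgeR, adjusted p under 0.05), with the same sign without and with the GC offset. The difference, AGS minus HGC-27 with the offset, is given after each gene. The fitted changes of the 2 lines had the same sign in 31 of them and opposite signs in 31, changes near 0 included. Sizes depend on the offset: without it the difference was over 1.5 times larger for 32 genes and over 1.5 times smaller for 8, with LAMA5 going from -0.389 to -3.86 and LTBP4 from -1.61 to -5.14. Since 54.2% of all genes passed without and 35.1% with the offset, a single gene passing is common. The HGC-27 control is 1 library, with 2.31% of its counts from genes over 60% GC, and its part in these differences was not tested.

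Among ninjurin, inflammasome and ESCRT-III genes, the change was more positive in AGS for CHMP7 (1.37). It was more negative in AGS for NINJ1 (-1.15), NLRP1 (-0.818) and CHMP1A (-0.761). Among chaperone, proteasome and ubiquitin ligase genes, the change was more positive in AGS for HSP90AA1 (2.59), HSPA8 (1.63), HSPH1 (0.711), HSPA4L (0.441), DNAJA1 (0.979), CHORDC1 (0.597), AHSA1 (1.49), FKBP4 (0.981), HSPD1 (0.986), TCP1 (1.41), HSP90AB1 (0.574), PSMD1 (1.84), PSMD12 (0.464), PSMB3 (1.51), UBR4 (2.05) and PDIA3 (0.455). It was more negative in AGS for HSF4 (-3.72) and HSPB8 (-0.663). 

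For stress, mitochondrial and HIF target genes, the change was more positive in AGS for MT-CO1 (1.09) and MT-CYB (0.565). It was more negative in AGS for DDIT4 (-3.01), STC2 (-1.23), ALDH1L2 (-1.26), MT-ND4 (-1.22), MT-CO2 (-1.22), MT-ATP6 (-1.22), MT-ND1 (-1.31), ANGPTL4 (-2.27), CA9 (-1.25) and NDRG1 (-1.08). For surface and matrix genes and their regulators, the change was more positive in AGS for MUC16 (0.876). It was more negative in AGS for P4HA3 (-1.84), LAMA5 (-0.389), LTBP4 (-1.61), ID3 (-1.7), WISP2 (-2.51), IGFBP3 (-1.13) and COL1A1 (-1.48). In the immune, immediate-early and histone lists, the change was more negative in AGS for IFITM3 (-0.594), IFITM2 (-1.89), ISG15 (-0.957), TAPBP (-0.734), C3 (-0.528), CLU (-2.03), TNFAIP2 (-0.523), NFKBIA (-0.624), FOS (-0.989) and H1F0 (-0.945). Of the other genes named, the change was more positive in AGS for RGS2 (0.998), ZNF473 (1.54), DYNC1H1 (1.8), KRT8 (1.73), KRT18 (1.97) and EPCAM (0.979). It was more negative in AGS for CLDN7 (-2.43), TSHZ2 (-2.65), MYLK3 (-2.01) and ELF3 (-0.763).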

How the results depend on the processing

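With DESeq2 456 genes were called higher and 852 lower, and with the 3 AGS libraries alone 2228 and 2535. With lines as in the titles both counts were 0, as was the count of genes differing between the lines. The GC offset gave 1636 higher, and 6185 differing between the lines. limma on FPKM gave 405, 1312 and 1230 higher, and 545, 521 and 424 lower, as deposited, rescaled, and rescaled with a pseudocount of 0.1. With 1 library left out, the counts ran from 201 to 2199 higher and from 734 to 2519 lower. The lowest counts came without AGS NINJ1 replicate 2 and the highest without an HGC-27 NINJ1 library. The fitted NINJ1 change was -0.70 in DESeq2 (adjusted p = 0.136), -0.56 with lines as in the titles (edgeR adjusted p = 0.884), and -0.57, -0.46 and -0.51 in the same 3 limma fits (limma adjusted p = 0.0749, 0.0815 and 0.0925), and -0.83 to -0.54 with 1 library left out. Only with lines as in the titles did named genes called in AGS turn direction: ALPG 0.26, ANGPTL4 0.70, ISG15 0.20 and DYNC1H1 -0.0248. Of 125 called genes checked singly, 116 passed without AGS NINJ1 replicate 1, 107 without replicate 2, 124 with the GC offset and 112 of 119 in DESeq2. Of the 109 with an FPKM value above the filter, 86, 92 and 84 passed in the 3 limma fits. No paired analysis was possible because the control is a single library without a replicate number. Where leaving out an AGS NINJ1 library left 1 in its group, it was assumed to vary like the HGC-27 pair. Depth limits genes under 1 CPM, of which 0.331% were called higher and 2.68% lower.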

Other observations

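Calls in other gene lists in AGS are given here as counts, beside 5.73% of all tested genes called higher and 9.30% lower, with, in brackets, the count with any 1 library other than the AGS control left out. Of 24 genes for cholesterol synthesis and uptake, 2 were called higher [0 to 2] and 5 lower [2 to 10], and 17 had both NINJ1 libraries below the control. Of 21 lysosome genes, 1 was called higher [0 to 2] and 5 lower [2 to 5]. Among 23 p53 targets, 4 were called higher [0 to 4] and 2 lower [1 to 5]. Aminoacyl-tRNA synthetase genes had 2 of 18 called in each direction [0 to 5 higher; 0 to 2 lower], while 15 had both NINJ1 libraries above the control. Of 23 genes of the actin cytoskeleton, 4 were called higher [1 to 8] and 2 lower [0 to 3], and of 11 tubulin genes 2 were called higher [0 to 4] and 0 lower [0 to 1]. By class of level, 32.2% of the 59 genes above 1000 CPM were called lower and 13.6% higher, beside 12.4% and 10.2% of the 2327 genes between 100 and 1000 CPM.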
